A study of Arabidopsis thaliana with 6 samples.

Results

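SABATH methyltransferases, named after their first characterised members, move a methyl group from S-adenosylmethionine to the carboxyl group of small acids, or to a nitrogen in some relatives. In plants the products include methyl jasmonate, methyl salicylate and the methyl ester of auxin, which cross membranes more easily than the free acids and can leave the tissue as volatiles. Methyl esterases of the MES family can turn several of these esters back into acids. FAMT makes methyl farnesoate in vitro, a compound better known as a juvenile hormone precursor in insects.

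The 10 genes described here are FAMT, its neighbour AT3G44870, BSMT1, JMT, IAMT1, NAMT1, PXMT1 and 3 family members known by identifier, AT5G38020, AT5G66430 and AT1G66690. They were taken by gene identifier from a table of 27371 genes, and all 10 were found there. FAMT was chosen by its measured FPKM, which was higher after treatment, so its values are a description without a test. The other 14 genes of the Arabidopsis family serve as a comparison.

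All 6 libraries came from whole Arabidopsis thaliana seedlings aged 14 days that carried ahl13-1, an insertion in the gene of the AT-hook protein AHL13 (line SALK_014014). In the first group, 3 libraries came from seedlings harvested 24 hours after a spray of Pst hrcC (optical density 0.002). The second group held 3 control libraries, and the labels do not say what control seedlings received. Pst hrcC is a Pseudomonas syringae pv. tomato mutant whose type III secretion system does not work, so it shows microbial patterns to the plant without injecting effectors. Which products of the bacterium the seedlings responded to was not tested. The series asks about AHL13 in immunity to such patterns, and the comparison here gives the response within the mutant, since wild-type libraries are not analysed here. One insertion line was used, and the labels do not say whether replicates were separate cultures, so the p-values cover no more than the scatter among these 6 libraries, which may be technical.

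AHL13 (AT4G17950) was read at 1.98, 2.43 and 2.08 FPKM after Pst hrcC and at 2.32, 2.17 and 2.47 FPKM in controls, which without a wild type does not check the mutation. FPKM is fragments per kilobase of transcript, scaled to the mapped fragments of each library, so levels of different genes can be set side by side. Depth was read only roughly, from the first peak of the lowest values. By that measure 1 fragment on a transcript of 1 kb was worth 0.030, 0.037 and 0.184 FPKM in Pst hrcC replicates 1, 2 and 3, and 0.152, 0.030 and 0.054 FPKM in control replicates 1, 2 and 3. Pst hrcC replicate 3 and control replicate 1 were thus the shallowest libraries, and low values there rest on few fragments. The tissue label matched its markers. The 6 leaf markers summed to between 21940 and 34290 FPKM after Pst hrcC and between 26710 and 33600 FPKM in controls. The 12 root markers summed to between 54.5 and 115 FPKM after Pst hrcC and between 75.3 and 118 FPKM in controls. No floral marker of 5 passed 0.553 FPKM in any library. In bulk tissue, fewer cells of a type and less RNA per cell cannot be told apart.

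FAMT (AT3G44860) was nearly silent in controls and among the best expressed family genes after Pst hrcC. It stood at 30.7, 86.4 and 131 FPKM in Pst hrcC replicates 1, 2 and 3, against 0.420, 0.236 and 0.0737 FPKM in control replicates 1, 2 and 3. The lowest treated library was far above the highest control, and the treated libraries differed among themselves by several fold. The means were 82.8 ± 50.4 FPKM after Pst hrcC and 0.243 ± 0.173 FPKM in controls (SD, n = 3 each), a ratio of 340. On the log2(FPKM + 1) scale the difference was 5.86 ± 0.50 (SE). It was 7.82 with a pseudocount of 0.1 and 3.86 with a pseudocount of 5, because the control values lie below 1 FPKM. The differences within same-numbered pairs were 4.48, 6.14 and 6.95 on that scale. Control values correspond to roughly 4.6, 13.1 and 2.2 fragments, so the ratio is imprecise.

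**Figure D1:**
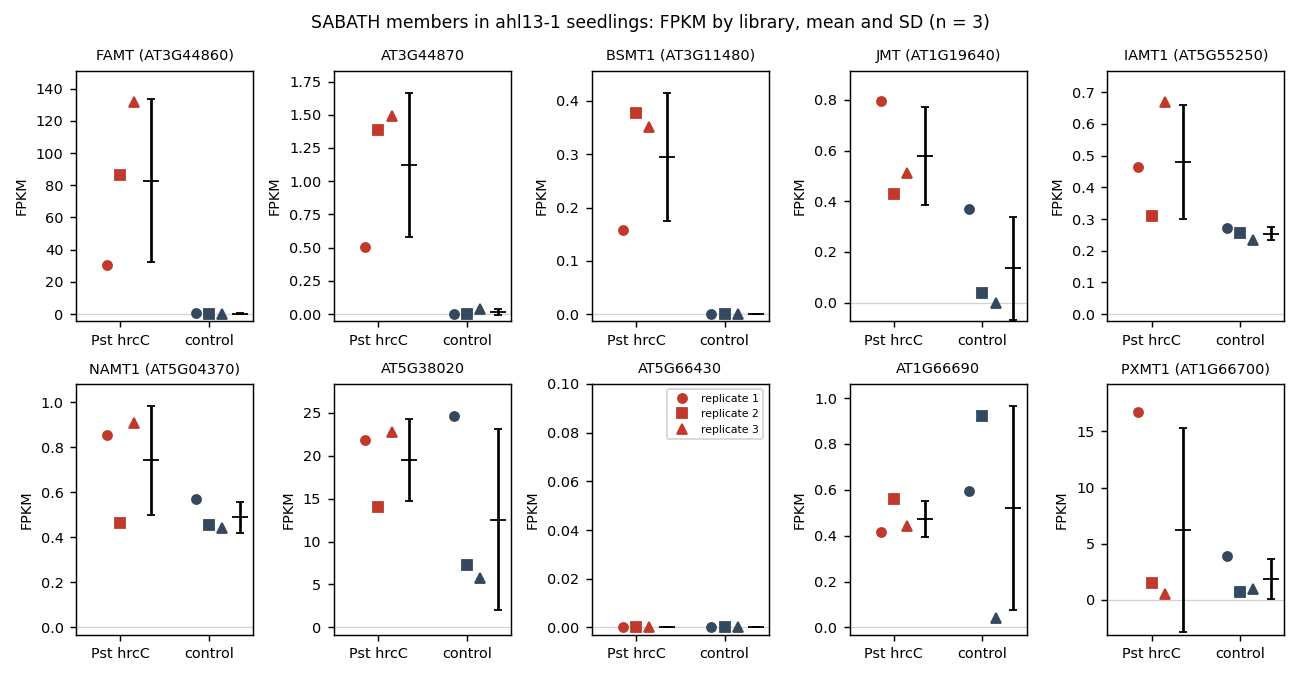
FPKM (vertical axes, each with its own range) of the 10 members in the 3 Pst hrcC libraries (red, left) and the 3 control libraries (dark, right). Symbols mark replicates, and the bar beside them is the mean ± SD (n = 3). FAMT reaches 131 FPKM after Pst hrcC, while BSMT1 stays below 0.4 FPKM and AT5G66430 is listed at 0 throughout.

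FAMT lies at chr3:16379571-16381434 on the plus strand of the RefSeq TAIR10.1 assembly and has 3 exons. AT3G44870, which has no enzyme name in the annotation, follows on the same strand at chr3:16382219-16383605, and AT3G44840 lies on the other side of FAMT at chr3:16372418-16373759 on the minus strand. FAMT and AT3G44870 were identical at 962 of 1038 aligned coding bases (92.7%), and FAMT and AT3G44840 at 82.4%. The stretch of FAMT and AT3G44870 around their longest identical coding run is shown because short reads inside that run cannot be assigned to either copy by sequence. Capitals mark the 9 bases of 150 at which the copies differ, the run without a difference is 70 bases long, and the stretch is coding sequence of the second exon at chr3:16380075-16380224 in FAMT and chr3:16382638-16382787 in AT3G44870.
FAMT: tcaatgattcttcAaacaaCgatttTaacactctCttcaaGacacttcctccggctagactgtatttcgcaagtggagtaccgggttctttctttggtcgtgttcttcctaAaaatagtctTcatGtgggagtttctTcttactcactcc
AT3G44870: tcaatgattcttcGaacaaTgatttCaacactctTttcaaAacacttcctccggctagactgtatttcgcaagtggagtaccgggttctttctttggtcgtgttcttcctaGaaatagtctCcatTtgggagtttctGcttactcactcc

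AT3G44870 itself was at 0.502, 1.38 and 1.49 FPKM after Pst hrcC, and at 0, 0 and 0.0385 FPKM in control replicates 1, 2 and 3. Its groups do not overlap, and as in FAMT the lowest treated library was replicate 1 and the highest replicate 3. The exact permutation test of the 3 against 3 values gave p = 0.1 (two-sided), the smallest it can give. In the treated libraries its level was 1.63%, 1.60% and 1.13% of that of FAMT. Of the 1149 windows of 50 bases in the AT3G44870 transcript, 21 (1.83%) occur unchanged in FAMT. The FAMT transcript has 1611 such windows, of which 21 (1.30%) occur unchanged in AT3G44870. How fragments from shared windows were divided between the copies was not tested. The level of AT3G44870 and its difference between the groups are therefore uncertain. AT3G44840, the family gene on the other side of FAMT, was listed at 0 in Pst hrcC replicate 3 and in every control, and at 0.0803 and 0.0969 FPKM in Pst hrcC replicates 1 and 2.

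The 250 bases before the annotated start of FAMT and AT3G44870 are shown because the genes are neighbours with similar coding sequence and very different levels. Capitals mark the core of the W-box, TTGAC or on the other strand GTCAA, the element bound by WRKY factors. The FAMT window is chr3:16379321-16379570 and the AT3G44870 window chr3:16381969-16382218, both on the plus strand of TAIR10.1.
FAMT: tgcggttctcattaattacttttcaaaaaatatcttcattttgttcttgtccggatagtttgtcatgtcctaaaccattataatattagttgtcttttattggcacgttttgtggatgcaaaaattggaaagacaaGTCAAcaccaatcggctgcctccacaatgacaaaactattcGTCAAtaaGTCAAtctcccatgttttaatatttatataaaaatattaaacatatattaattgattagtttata
AT3G44870: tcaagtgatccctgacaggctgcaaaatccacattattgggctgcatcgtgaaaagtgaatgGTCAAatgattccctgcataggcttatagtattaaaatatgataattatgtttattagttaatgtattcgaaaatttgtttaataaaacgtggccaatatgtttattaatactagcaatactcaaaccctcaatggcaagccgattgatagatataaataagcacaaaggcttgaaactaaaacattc

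The FAMT window held the core 3 times, with first bases 114, 73 and 65 bases before the start, and the AT3G44870 window held it 1 time. Of 26697 gene windows of this length, 45.0% held the core at least 1 time on either strand and 3.39% at least 3 times. Neither window held the G-box CACGTG, present in 6.58% of all windows, or its variant CACATG on either strand, present in 11.2%. Among the other members only NAMT1 held the G-box, while IAMT1 and AT1G66690 held the variant. The W-box core occurred 2 times in the AT5G38020 window and 1 time in those of BSMT1, IAMT1, AT5G66430, AT1G66690 and PXMT1. The windows of JMT and NAMT1 did not hold it. The FAMT window was 70.8% A or T, against a median of 68.8% over all windows. Annotated starts may not be like points in different genes. The FAMT transcript has 1047 coding bases of 1660, that of AT3G44870 1140 of 1198 and that of AT5G66430 1065 of 1065. Whether these motifs bear on the levels was not tested.

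The members that make hormone and defence esters were barely expressed in either group, at under 1 FPKM in every library. BSMT1 (AT3G11480) methylates salicylic and benzoic acid. It was at 0.158, 0.378 and 0.351 FPKM after Pst hrcC and listed at 0 in all 3 controls. Signal was thus present in every treated library and in no control, though the value in Pst hrcC replicate 3 is worth roughly 2.8 fragments. JMT (AT1G19640), which makes methyl jasmonate, was at 0.796, 0.427 and 0.510 FPKM after Pst hrcC and at 0.370, 0.0381 and 0 FPKM in controls. The groups do not overlap, by a narrow margin between Pst hrcC replicate 2 and control replicate 1, where 0.370 FPKM is roughly 4.1 fragments.

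IAMT1 (AT5G55250) methylates the auxin indole-3-acetic acid. It was at 0.465, 0.308 and 0.668 FPKM after Pst hrcC and at 0.272, 0.257 and 0.233 FPKM in controls. These groups do not overlap either, and the lowest treated value was close to the highest control. NAMT1 (AT5G04370), which methylates nicotinic acid, was at 0.853, 0.465 and 0.908 FPKM after Pst hrcC and at 0.569, 0.456 and 0.440 FPKM in controls. Here Pst hrcC replicate 2 lay inside the control range. Two-sided exact permutation tests gave p = 0.1 for BSMT1, JMT and IAMT1 and p = 0.2 for NAMT1, in a design that cannot go below 0.1.

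The limma test on log2(FPKM + 1) took in genes averaging 1 FPKM or more across all libraries, and 7 of the 10 members averaged less and were left out. Of these 7, 6 had signal in at least 1 library, and the treated values of 4 of the 6 (AT3G44870, BSMT1, JMT and IAMT1) lay wholly above the control values and none wholly below. Among all 7499 genes above 0 but under that minimum, 4.69% lay wholly above and 2.73% wholly below. The members were chosen with results of these data known, so their share is a description. AT3G44870 shares sequence with FAMT, which was chosen for its rise. How far its values rest on FAMT fragments was not tested. Among the other family genes, 8 of 14 were left out, and none of the 7 with any signal lay wholly above or below.

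The remaining low members showed no such separation. AT1G66690 was at 0.414, 0.562 and 0.441 FPKM after Pst hrcC and at 0.596, 0.923 and 0.0418 FPKM in controls (two-sided exact permutation p = 0.9). The control values were the wider, enclosing all treated ones. AT5G66430, whose coding sequence is closest to that of NAMT1 (80.8% identical), was listed at 0 in all 6 libraries.

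PXMT1 (AT1G66700), annotated as a paraxanthine methyltransferase, and AT5G38020 were the members apart from FAMT with enough signal to be tested, and neither passed. PXMT1 was at 16.7, 1.53 and 0.505 FPKM after Pst hrcC and at 3.90, 0.733 and 0.971 FPKM in controls. The replicate 1 library was the highest of each group, and Pst hrcC replicate 3 was below every control. The fitted log2 change of PXMT1 was 0.67 ± 0.92 (SE) with a limma adjusted p of 1.00, and it was -0.39 when Pst hrcC replicate 1 was left out and 1.39 when replicate 3 of that group was. PXMT1 and AT1G66690 are neighbours on chromosome 1 with 91.7% identical coding bases and a shared run of 80 bases, so the division of reads between them is uncertain.

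AT5G38020 was the most abundant member in controls. It was at 21.8, 14.0 and 22.7 FPKM after Pst hrcC and at 24.6, 7.27 and 5.77 FPKM in controls. Control replicate 1 was above every treated library, while both other controls lay below all of them. The fitted log2 change was 0.83 ± 0.51 (SE) with a limma adjusted p of 0.975. It was 1.42 without control replicate 1 (limma adjusted p = 0.169) and 0.46 without control replicate 3. Neither PXMT1 nor AT5G38020 had an unadjusted p under 0.05. Across all 16923 genes tested in limma, 0.284% rose and 0.00591% fell at an adjusted p under 0.05.

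Those shares stand for 48 genes that rose and 1 that fell, and they depended on single libraries. The total of 49 was 180, 2 and 3 without Pst hrcC replicates 1, 2 and 3, and 19, 2 and 3 without control replicates 1, 2 and 3. Rescaling to the sum of nuclear genes gave 90 higher and 25 lower, while scaling by the median of ratios gave 43 higher and 1 lower. AT5G38020 passed in none of 14 alternative settings, and PXMT1 in none of the 13 in which it was tested. The 6 low members with any signal entered a limma test only when no filter on low values was used, and none passed there.

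The order of the members differed between the groups. After Pst hrcC the order from the highest mean was FAMT (82.8 ± 50.4 FPKM), AT5G38020 (19.5 ± 4.80 FPKM), PXMT1 (6.25 ± 9.08 FPKM) and AT3G44870 (1.12 ± 0.54 FPKM), all SD with n = 3. Every treated value of FAMT was above every one of AT5G38020, whereas those of AT5G38020 and PXMT1 overlapped, as did those of PXMT1 and AT3G44870 and those of AT3G44870 and NAMT1. NAMT1 (0.742 ± 0.241 FPKM), JMT (0.578 ± 0.194 FPKM), IAMT1 (0.480 ± 0.180 FPKM), AT1G66690 (0.472 ± 0.079 FPKM) and BSMT1 (0.296 ± 0.120 FPKM) followed. Among these each neighbouring pair overlapped, except that every value of AT1G66690 was above every one of BSMT1. In controls AT5G38020 (12.6 ± 10.5 FPKM) led, before PXMT1 (1.87 ± 1.76 FPKM), AT1G66690 (0.520 ± 0.446 FPKM) and NAMT1 (0.489 ± 0.070 FPKM). Every control value of AT5G38020 was above every one of PXMT1, and the other neighbours in that order overlapped. IAMT1 (0.254 ± 0.020 FPKM), wholly below NAMT1, FAMT (0.243 ± 0.173 FPKM) and JMT (0.136 ± 0.203 FPKM) were next and overlapped one another. AT3G44870 (0.0128 ± 0.0222 FPKM) had signal in 1 control library, and BSMT1 and AT5G66430 had none.

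Over the whole family, FAMT held 16.0%, 28.5% and 44.3% of the summed FPKM in Pst hrcC replicates 1, 2 and 3, against 0.543%, 0.320% and 0.111% in control replicates 1, 2 and 3. Summed FPKM of the family was 192, 303 and 297 after Pst hrcC and 77.4, 73.7 and 66.4 in controls. FAMT did not carry the difference alone. AT1G15125, outside the 10 members, held 42.7%, 59.6% and 36.9% of the family sum in Pst hrcC replicates 1, 2 and 3. In control replicates 1, 2 and 3 it held 9.63%, 60% and 65.1%. It was at 82.0, 181 and 109.6 FPKM after Pst hrcC and at 7.45, 44.3 and 43.2 FPKM in controls. Every treated value was above every control, and control replicate 1 was much lower than the other controls. Its log2 fold change of 2.21 ± 0.68 did not pass (SE, limma adjusted p = 0.496), and it was 1.41 without control replicate 1.

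**Figure D2:**
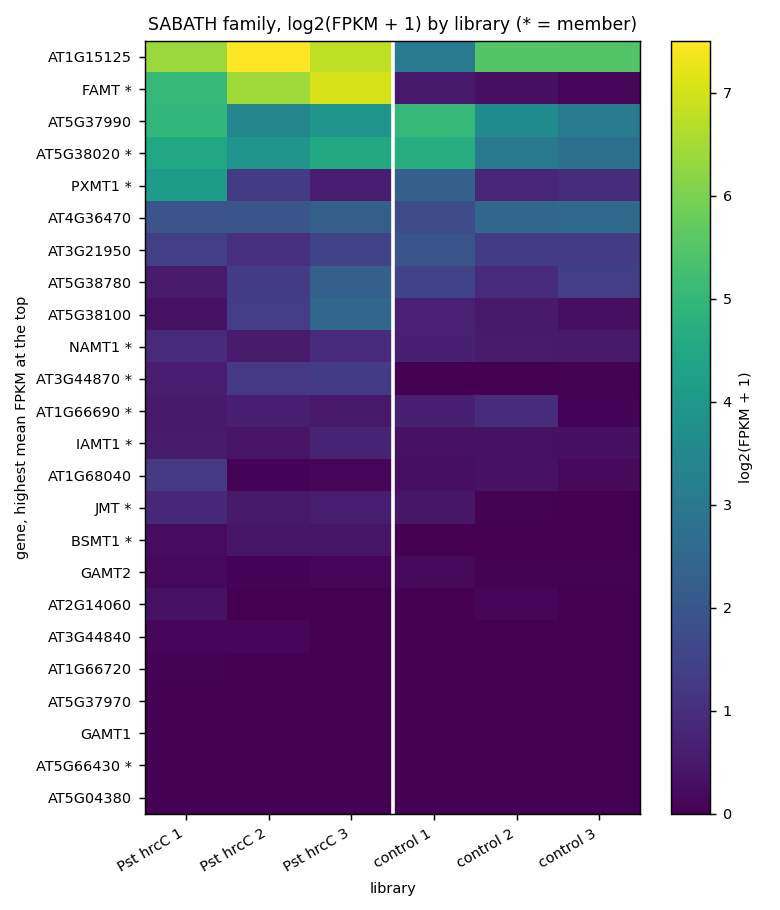
Heat map of log2(FPKM + 1) for the 24 family genes (rows, highest mean at the top, an asterisk marks a member) in the 3 Pst hrcC libraries (left of the white line) and the 3 control libraries (right). FAMT and AT1G15125 are brighter in the Pst hrcC columns. Within their own rows, AT5G37990 and PXMT1 are brightest in the replicate 1 column of each group.

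Of the other 14 family genes, 6 were tested and none rose or fell. AT1G15125 (1 of the 6) was higher at an unadjusted limma p under 0.05, against 5.18% of all tested genes. It was also the 1 of the 6 whose treated values lay wholly above the controls, and none lay wholly below, against 7.66% above and 3.61% below among all tested genes. Their median log2 fold change was 0.15, against 0.04 over all genes tested. AT5G37990, on chromosome 5 near AT5G38020, was at 30.5, 9.84 and 14.1 FPKM after Pst hrcC and at 31.1, 11.7 and 7.28 FPKM in controls. Its values followed the replicate number more than the treatment: replicate 1 was the highest in both groups, as for PXMT1. AT5G38100, in the same region, was at 0.263, 1.58 and 4.53 FPKM after Pst hrcC and at 0.600, 0.421 and 0.241 FPKM in controls (log2 fold change 0.89 ± 0.50, SE, limma adjusted p = 0.938). Only its treated mean was above the minimum of 1 FPKM, and the fold change was 0.35 without Pst hrcC replicate 3.

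AT5G38780 was at 0.455, 1.46 and 3.91 FPKM after Pst hrcC and at 1.89, 0.914 and 1.60 FPKM in controls. AT4G36470 was at 2.78, 2.93 and 3.80 FPKM after Pst hrcC and at 2.29, 4.62 and 4.86 FPKM in controls. AT3G21950 was at 1.60, 1.07 and 1.85 FPKM after Pst hrcC and at 2.86, 1.54 and 1.48 FPKM in controls. In all 3 genes the groups overlapped. The gibberellin methyltransferases GAMT1 and GAMT2 stayed at or under 0.129 FPKM in every library, and AT5G04380 was listed at 0 in all of them. AT1G68040 ranged between 0.0470 and 1.36 FPKM after Pst hrcC and between 0.146 and 0.281 FPKM in controls. AT1G66720, AT2G14060 and AT5G37970 stayed at or under 0.253 FPKM.

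The 5 genes outside the family whose profile was nearest to that of FAMT were CORI3, JAL23, VSP2, LOX2 and CLH1. Likeness was the root mean square difference of log2(FPKM + 1) over the 6 libraries after subtracting the mean of each gene, computed for 16914 genes. It was 0.53 for CORI3, 0.56 for JAL23, 0.65 for VSP2, 0.66 for LOX2 and 0.68 for CLH1, against a median of 2.98. Since FAMT was chosen for its rise, genes near it must also be higher after Pst hrcC. Likeness was measured over these same 6 libraries, so the choice also favours genes with the same order of treated replicates.

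CORI3 (AT4G23600), a coronatine-induced cystine lyase, was at 57.7, 141 and 218 FPKM after Pst hrcC and at 4.33, 1.12 and 2.91 FPKM in controls. The jacalin-related lectin JAL23 (AT2G39330) was at 11.4, 40.7 and 48.5 FPKM after Pst hrcC and at 0.0624, 0.0128 and 0.110 FPKM in controls. VSP2 (AT5G24770), a vegetative storage protein, was at 96.9, 607 and 762 FPKM after Pst hrcC and at 10.5, 9.83 and 13.7 FPKM in controls. In each of them, as in FAMT, Pst hrcC replicate 1 was the lowest treated library and replicate 3 the highest. That order is a description, since the choice by likeness favours it. LOX2 (AT3G45140), a lipoxygenase of jasmonate synthesis, averaged 469 ± 207 FPKM after Pst hrcC and 16.0 ± 7.93 FPKM in controls. Chlorophyllase CLH1 (AT1G19670) averaged 277 ± 109 FPKM after Pst hrcC and 9.93 ± 1.36 FPKM in controls (SD, n = 3 each for both).

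**Figure D3:**
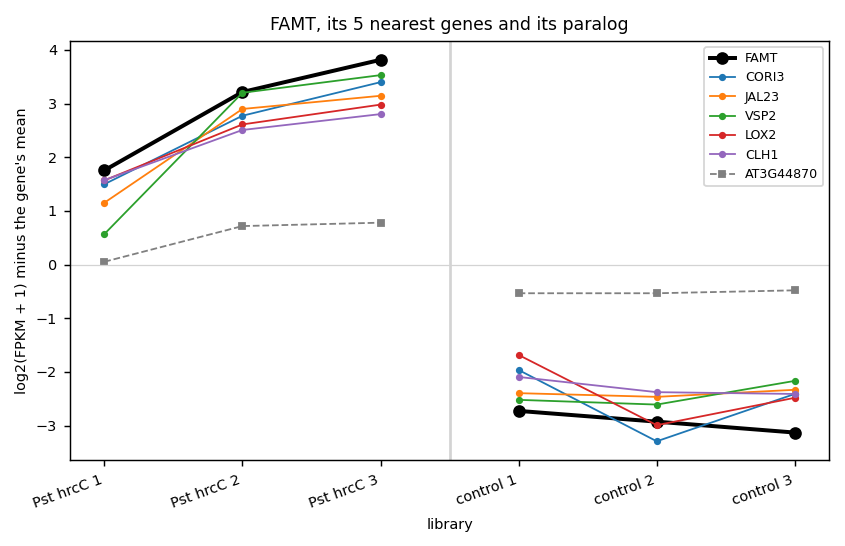
Log2(FPKM + 1) minus the mean of each gene (vertical axis) in the 3 Pst hrcC libraries (left) and the 3 control libraries (right) for FAMT (black), its 5 nearest genes (colours) and AT3G44870 (grey, dashed). Lines join values of a gene within a group. In FAMT and its 5 nearest genes, Pst hrcC replicate 1 is the lowest treated library and replicate 3 the highest. The 5 genes were chosen by likeness over these same libraries, which favours a shared order.

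Methyl esterases, which can hydrolyse the esters that SABATH enzymes make, included the lowest p among the tested genes of these lists, FAMT aside. Of 18, 13 were tested and none rose or fell over all genes. MES1, MES3, MES5 and MES7 (4 of the 13) were higher at an unadjusted limma p under 0.05, against 5.18% of all tested genes. MES1 is counted as a description only, for the reason given below. The median log2 fold change of the 13 was 0.13. MES5 (AT5G10300), a hydroxynitrile lyase, was at 7.62, 11.7 and 15.9 FPKM after Pst hrcC and at 1.74, 3.85 and 3.92 FPKM in controls. All treated values were above all controls, and the fitted log2 change was 1.61 ± 0.33 (SE) with a limma adjusted p of 0.191. MES5 passed in the fit with a replicate block (limma adjusted p = 0.0361).

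MES7 (AT2G23560), active on methyl salicylate, was at 6.17, 12.5 and 12.9 FPKM after Pst hrcC and at 2.90, 4.51 and 4.47 FPKM in controls (log2 fold change 1.17 ± 0.29, SE, limma adjusted p = 0.329). MES1 (AT2G23620), also active on methyl salicylate, was at 0.842, 3.52 and 7.40 FPKM after Pst hrcC and at 0.376, 0.463 and 0.423 FPKM in controls. In MES1 too Pst hrcC replicate 1 was the lowest treated library and replicate 3 the highest, and the fitted log2 change was 1.54 ± 0.51 (SE) with a limma adjusted p of 0.550. The mean of MES1 was 3.92 FPKM after Pst hrcC and 0.421 FPKM in controls, so it entered the test only through the treated libraries, and its place among the 4 is a description. Without Pst hrcC replicate 1, MES7 passed (limma adjusted p = 0.0435). MES1 was also under the threshold there (limma adjusted p = 0.0373), again only as a description. The log2 fold change of MES1 was 1.02 without Pst hrcC replicate 3. MES2, the most abundant of the family, averaged 57.8 ± 27.5 FPKM after Pst hrcC and 50.5 ± 14.6 FPKM in controls (SD, n = 3 each). Several MES genes lie side by side on chromosome 2, and their reads may be hard to divide.

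**Figure D4:**
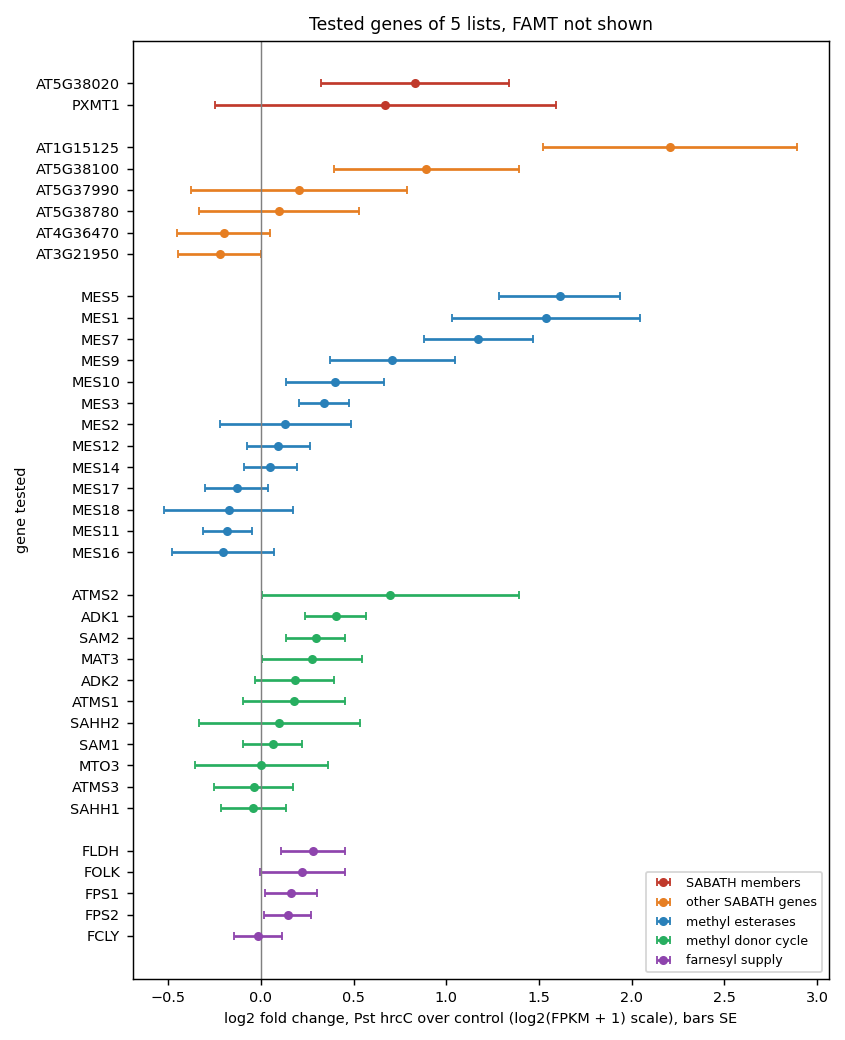
Log2 fold change of Pst hrcC over control on the log2(FPKM + 1) scale (horizontal axis, bars are SE from limma) for the tested genes of 5 lists; FAMT is not shown. AT1G15125, MES5, MES1 and MES7 lie farthest to the right, and the genes of the methyl donor cycle and farnesyl supply lie between -0.04 and 0.70.

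Genes that provide and recycle the methyl donor did not pass. All 11 were tested, none rose or fell, and the median log2 fold change was 0.18. ADK1, an adenosine kinase, was at 17.3 ± 3.44 FPKM after Pst hrcC and 12.7 ± 0.42 FPKM in controls (SD, n = 3 each, limma adjusted p = 0.721). It was the only 1 of the 11 with an unadjusted limma p under 0.05. Of all tested genes, 5.18% were higher at that level. SAM2, an S-adenosylmethionine synthetase, was at 164, 192 and 185 FPKM after Pst hrcC and at 140.4, 161 and 139 FPKM in controls (limma adjusted p = 0.914). SAHH1, which clears S-adenosylhomocysteine, averaged 399.6 ± 11.5 FPKM after Pst hrcC and 413 ± 52.9 FPKM in controls (SD, n = 3 each). MAT3, another synthetase, averaged 105 ± 21.4 FPKM after Pst hrcC and 87.8 ± 26.4 FPKM in controls (SD, n = 3 each; limma adjusted p = 1.00).

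The 5 genes around farnesyl diphosphate and farnesol, from which farnesoic acid can be derived, were all tested and none rose or fell in limma, also at an unadjusted p under 0.05. FLDH (AT4G33360), a farnesol dehydrogenase, was at 18.8, 18.7 and 23.0 FPKM after Pst hrcC and at 13.5, 18.3 and 17.6 FPKM in controls (log2 fold change 0.28 ± 0.17, SE, limma adjusted p = 0.972; 0.15 without control replicate 1). The farnesyl diphosphate synthase FPS1 averaged 9.55 ± 0.31 FPKM after Pst hrcC and 8.46 ± 1.20 FPKM in controls, and its copy FPS2 averaged 3.06 ± 0.10 FPKM after Pst hrcC and 2.69 ± 0.37 FPKM in controls (SD, n = 3 each). The median log2 fold change of the 5 was 0.17, against 0.04 over all genes tested.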

How the data were processed

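The authors deposited 1 table of FPKM values, with 27371 genes and 1 column per library (3 Pst hrcC, 3 control). Per the submitters' processing notes, the TAIR10 build was used with TopHat2 2.1.1 and Cufflinks 2.2.1, besides FastQC; no source used here gives the annotation, strand or settings. Groups and replicate numbers came from sample titles. Values were used as deposited. The 16923 genes averaging 1 FPKM or more entered limma 3.58.1 (R 4.3.3) as log2(FPKM + 1) (variance trend, treatment only, 4 residual degrees of freedom, two-sided), with Benjamini-Hochberg adjustment over all tested genes and a threshold of 0.05. The test was also run on simulated data with independent errors in each library. That simulation does not cover libraries that correlate with each other. Listed genes below the minimum had exact permutation tests. FAMT averaged above the minimum and was among the 16923 genes fitted, which gave its difference and SE. No p-value is given for it.

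Members and lists were chosen with earlier results of these data known. Named genes were all members, family genes averaging 1 FPKM or more in either group, the 3 lowest p-values of each other list, and the 5 genes nearest to FAMT (markers are given as sums); MES2, SAHH1 and further family genes were chosen after their values were seen. Sequences and gene models came from the RefSeq TAIR10.1 genome and annotation, whose name differs from that of the authors' build; the deposited table has no coordinates. Of its genes, 26697 had a model there for the count of motifs. Coding sequences were aligned pairwise with Biopython 1.88. After subtracting group means, libraries that share a number correlated across genes at 0.431 (replicate 1), 0.170 (replicate 2) and 0.130 (replicate 3). Differently numbered libraries correlated at between -0.327 and 0.210, the highest being Pst hrcC replicate 2 with control replicate 3. No label says that numbers pair libraries. All tests are unpaired, and a fit with a replicate block was one of the alternatives. Depth was estimated only roughly, from 10793 genes of at least 1 kb with 1 transcript.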

Additional observations from a re-analysis of the deposited data

How the results depend on the processing

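The number of changed genes, 49, was 17 with a pseudocount of 5, 2 with no filter on low values, 115 after rescaling to nuclear genes (90 higher, 25 lower, against 48 and 1), 182 without both replicate 1 libraries and between 2 and 180 when 1 library was left out. Fitting a replicate block gave 47. FAMT was fitted but is given no p-value. Among the other SABATH genes, the methyl donor cycle and farnesyl supply, none passed in any of the 14 alternatives in which it was tested. For members this means PXMT1 and AT5G38020, since 6 others were tested only with no filter on low values and AT5G66430 never. Methyl esterases that passed were 1 with the replicate block (MES5) and 2 without both replicate 1 libraries (MES5 and MES7). When 1 library was left out, between 0 and 2 passed. The 2 were MES7 and MES1, without Pst hrcC replicate 1. MES1 entered the test only through its treated libraries, so its pass is a description. The cause of these differences was not tested. The block changed no other call among the tested SABATH, methyl esterase, methyl donor and farnesyl supply genes, FAMT aside. Calls for the genes nearest to FAMT are not given here. The difference of FAMT stayed between 3.86 and 7.82 on the log2 scale. That of PXMT1 ran from -0.39 to 1.39, that of AT5G37990 from -0.23 to 0.75, that of AT5G38020 from 0.46 to 1.42 and that of AT1G15125 from 1.41 to 2.62. Depth limits BSMT1, JMT, IAMT1 and AT3G44870, whose lowest values rest on few fragments.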
